A study of Mus musculus with 18 samples.

Results

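RNA of 42 genes of the cell cycle and of DNA replication was measured in endothelial cells sorted from the adult mouse cortex. The members were listed by name: 42 symbols, each found once among the 21638 genes of the deposited table, and all 42 were among the 17094 genes tested. They cover the path from the growth decision to cell division. The 17 genes of G1 and S phase are the D-type and E-type cyclins, 2 inhibitors of cyclin-dependent kinases (CDKs), the replicative helicase, the replication clamp and the enzymes of nucleotide supply. The 25 mitotic genes are the A-type and B-type cyclins with Cdk1, the mitotic kinases, the anaphase-promoting complex partners, and the genes of the spindle, kinetochore and chromosome.

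The study sorted CD31+, CD41-, CD45- cells and made ultra-low-input mRNA libraries from both sides of the brain. Sham mice and mice with middle cerebral artery occlusion (MCAO, a surgical model of ischaemic stroke) were labelled WT, and each gave 3 ipsilateral and 3 contralateral libraries. Mice with endothelial deletion of Hdac2 (Hdac2 ECKO, Hdac2lox/lox:Cdh5CreERT2) or of Ezh2 (Ezh2 ECKO, Ezh2lox/lox:Cdh5CreERT2) gave 3 ipsilateral libraries each, all after MCAO. Every group received tamoxifen at 75 mg per kg, which the design gives as 5 doses, and brains were taken on day 7 of stroke. Cdh5CreERT2 is a tamoxifen-activated recombinase driven by the promoter of VE-cadherin, so deletion is aimed at endothelium in all organs, and whether the WT mice carried it was not stated. No sham or contralateral ECKO library entered the 18, so neither deletion could be set against its own sham or opposite side. Each ECKO group was tested against MCAO ipsilateral and against the other ECKO group. The comparisons with MCAO ipsilateral share their 3 control libraries. Nothing in the labels said that libraries of a group came from separate mice, so p-values measure the spread between these libraries, which may be technical.

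Endothelial cells of the adult brain divide rarely, and new vessel growth needs them to leave quiescence. Growth signals raise the D-type cyclins, which activate CDK4 and CDK6. These phosphorylate the retinoblastoma protein (pRb) and free E2F factors, which switch on cyclin E, the MCM helicase, PCNA and the enzymes that make deoxynucleotides. Later the A-type and B-type cyclins with CDK1 drive mitosis, and the DREAM and B-MYB complexes time the mitotic genes through CHR promoter elements. p21 (Cdkn1a) and p27 (Cdkn1b) hold CDKs back. EZH2 is the methyltransferase of the Polycomb repressive complex PRC2, and HDAC2 is a histone deacetylase.

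Library totals ran from 25791401 to 57576255 counts. All 10 endothelial markers were detected in every library, with a summed level of 7768 to 26905 CPM (counts per 1000000 counts of the library, scaled by TMM, the trimmed mean of M-values). Microglia and leukocyte markers summed to 3.81 to 7.10 CPM in sham ipsilateral, 5.62 to 8.84 in sham contralateral and 8.59 to 22.8 in MCAO ipsilateral. They summed to 6.94 to 18.9 CPM in MCAO contralateral, 2.03 to 13.1 in Hdac2 ECKO and 9.76 to 17.0 in Ezh2 ECKO. Cx3cr1, Tmem119 and C1qb were at 0 in 6 libraries each, C1qa in 7 and Aif1 in 4. P2ry12, Csf1r and Ptprc were detected in every library. Red cell markers summed to 70.5 to 671 CPM in the Ezh2 ECKO libraries and to 19222 to 297852 CPM in all others. Neither deleted gene fell in the libraries labelled for its deletion: Hdac2 was at 57.6, 85.0 and 87.9 CPM in Hdac2 ECKO against 68.2 to 96.1 CPM in MCAO ipsilateral, and Ezh2 at 12.0, 19.7 and 8.41 CPM in Ezh2 ECKO against 4.45 to 7.85 CPM. These are whole-gene counts, which include exons outside a floxed part, so the labels of both ECKO groups are not checked by them. Olfactory and vomeronasal receptor genes, 1466 genes that endothelial cells are not known to use, summed to 1529 CPM in MCAO contralateral replicate 1 and 1561 CPM in Ezh2 ECKO replicate 2, and to between 165 and 583 CPM in the other 16 libraries. These 2 libraries stood apart, and a member's log2 difference that moved by over 1.5 times or changed its call without them is also given without them. Because this is bulk RNA, fewer cells expressing a gene and less RNA per cell cannot be told apart.

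Promoter windows of 6 members are shown because they carry the results or stand for a role: Cdkn1a and Ccnd3, Ube2c, and 1 representative each of the mitotic CDK, the mitotic chromosome genes and the helicase. They are the 250 bases before a RefSeq start on build GRCm38.p6, read 5′ to 3′ on the gene's own strand. Capitals mark GC boxes (GGGCGG) in Cdkn1a and Ccnd3, CHR elements (TTTGAA) and CCAAT boxes in Ube2c and Top2a, these and E2F sites (TTTGGCG or TTTCGCG) in Cdk1, and E2F sites and CCAAT boxes in Mcm6, on either strand. Cdkn1a and Ccnd3 each have another annotated start, with 0 and 2 GC boxes in its window.
Cdkn1a (chr17:29093519-29093768, + strand): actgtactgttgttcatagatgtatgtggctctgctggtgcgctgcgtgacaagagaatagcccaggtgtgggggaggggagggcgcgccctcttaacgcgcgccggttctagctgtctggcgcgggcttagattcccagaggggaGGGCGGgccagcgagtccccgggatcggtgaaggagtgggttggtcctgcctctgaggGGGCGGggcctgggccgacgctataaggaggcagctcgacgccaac
Ccnd3 (chr17:47593217-47593466, + strand): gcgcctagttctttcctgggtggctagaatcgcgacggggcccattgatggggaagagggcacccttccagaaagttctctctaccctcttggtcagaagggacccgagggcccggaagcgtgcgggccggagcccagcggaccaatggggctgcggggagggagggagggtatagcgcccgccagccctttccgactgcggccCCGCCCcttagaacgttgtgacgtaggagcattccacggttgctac
Ube2c (chr2:164769679-164769928, + strand): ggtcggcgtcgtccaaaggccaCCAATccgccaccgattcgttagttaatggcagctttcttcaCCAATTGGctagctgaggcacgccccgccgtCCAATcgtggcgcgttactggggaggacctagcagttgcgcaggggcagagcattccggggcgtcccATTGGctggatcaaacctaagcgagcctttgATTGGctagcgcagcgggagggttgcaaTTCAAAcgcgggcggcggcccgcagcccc
Cdk1 (chr10:69352913-69353162, - strand): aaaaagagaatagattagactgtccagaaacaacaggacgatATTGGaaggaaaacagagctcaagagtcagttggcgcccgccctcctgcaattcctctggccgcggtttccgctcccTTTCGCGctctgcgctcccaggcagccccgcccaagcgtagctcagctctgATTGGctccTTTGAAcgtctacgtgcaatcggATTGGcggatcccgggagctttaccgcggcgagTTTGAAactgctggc
Top2a (chr11:99024190-99024439, - strand): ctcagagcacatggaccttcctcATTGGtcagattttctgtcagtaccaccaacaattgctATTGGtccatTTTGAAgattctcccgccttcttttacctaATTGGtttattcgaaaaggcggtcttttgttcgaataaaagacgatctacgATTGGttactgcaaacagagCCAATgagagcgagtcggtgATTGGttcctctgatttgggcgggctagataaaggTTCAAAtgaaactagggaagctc
Mcm6 (chr1:128359706-128359955, - strand): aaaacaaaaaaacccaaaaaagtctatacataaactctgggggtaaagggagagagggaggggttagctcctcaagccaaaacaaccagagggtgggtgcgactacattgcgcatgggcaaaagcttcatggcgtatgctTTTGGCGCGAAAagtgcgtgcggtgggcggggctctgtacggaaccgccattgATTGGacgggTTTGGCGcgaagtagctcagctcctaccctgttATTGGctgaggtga
In Cdk1 the CHR elements begin 71 and 15 bases before the start, in Top2a 179 and 23, and in Ube2c 29. Neighbouring matches can share letters: 2 of the 3 E2F matches of Mcm6, at 110 and 105 bases, overlap on opposite strands, as do 2 of the 6 CCAAT boxes of Ube2c, at 186 and 183.

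RefSeq windows were found for 34 of the 42 members and for 27025 genes in all. A CCAAT box lay in the window of 29 of the 34 members (85.3%) against 37.5% of all genes, and in 19 of 21 mitotic members (90.5%). CHR elements lay in 8 of 21 mitotic members (38.1%) and in 1 of 13 G1 and S members (7.69%), which was Mcm2, against 18.3% of all genes. All 8 mitotic members with a CHR element also held a CCAAT box, a pair found in 7.34% of all genes. E2F sites of these letters lay in 4 members, Mcm5, Mcm6, Cdk1 and Cdca8 (11.8%, against 2.22% of all genes). GC boxes lay in 25 of 34 members (73.5%, against 35.4%). A match describes letters only and shows no binding.

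Levels per kilobase of transcript length spanned the range from abundant to barely detected. Pcna was highest, at a mean of 55.5 CPM per kb over the 18 libraries, followed by Cdkn1a (27.1), Ccne2 (8.00), Ccnd3 (7.88), Ccnd1 (6.34) and Mcm4 (6.25). Mki67, the proliferation antigen Ki-67, was lowest at 0.0621, beside Aurkb (0.0626) and Ccne1 (0.0650). On the CPM scale, 21 of the 25 mitotic members had a mean under 5 CPM, and the exceptions were Kif20a, Ccna2, Kif23 and Cenpa. Of the 17 G1 and S members, 14 had a mean of 5 CPM or more, and Ccne1, Mcm5 and Rrm2 did not.

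The receptor genes gave a level to set the low members against. Their 95th percentile in CPM per kb was computed in each library, a measure added after the data had been seen. Of the members, 13 lay above it in all 18 libraries, 11 of them G1 and S genes and 2 mitotic (Ccna2 and Kif20a). Another 17 members lay above it in 9 libraries or fewer, 15 of them mitotic, with Ccne1 and Rrm2. Mki67 and Hmmr passed it in 2 libraries each. In MCAO ipsilateral 17, 22 and 24 of the 25 mitotic members lay above it in replicates 1, 2 and 3, against 17, 10 and 9 in sham ipsilateral, 11, 11 and 4 in Hdac2 ECKO and 10, 8 and 9 in Ezh2 ECKO. Sham contralateral had 14, 7 and 19 and MCAO contralateral 6, 18 and 18. The percentile itself moved with the receptor level of the library: it was 0.0464 to 0.0942 CPM per kb in MCAO ipsilateral, 0.0886 to 0.198 in sham ipsilateral, 0.0780 to 0.204 in Hdac2 ECKO and 0.0867 to 0.526 in Ezh2 ECKO. Its part in those counts was not tested. The summed level of the 21 low mitotic members was 19.97, 37.3 and 48.3 CPM in MCAO ipsilateral, 18.9, 24.0 and 14.3 CPM in sham ipsilateral, 16.8, 12.5 and 20.7 CPM in sham contralateral and 29.0, 39.1 and 16.2 CPM in Hdac2 ECKO. All 3 groups just named overlapped MCAO ipsilateral. It reached 42.8 CPM in MCAO contralateral replicate 1 and 41.6 CPM in Ezh2 ECKO replicate 2, the libraries of highest receptor level, against 17.2 and 19.4 CPM and 24.2 and 24.4 CPM in the others of their groups. Summed microglia and leukocyte markers were highest in MCAO ipsilateral replicates 2 and 3, at 22.8 and 22.7 CPM, against 8.59 CPM in replicate 1. They were at 18.9 CPM in MCAO contralateral replicate 1, 10.7 in Ezh2 ECKO replicate 2 and 5.45 in Hdac2 ECKO replicate 2. Their part in the mitotic levels was not tested.

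**Figure D1:**
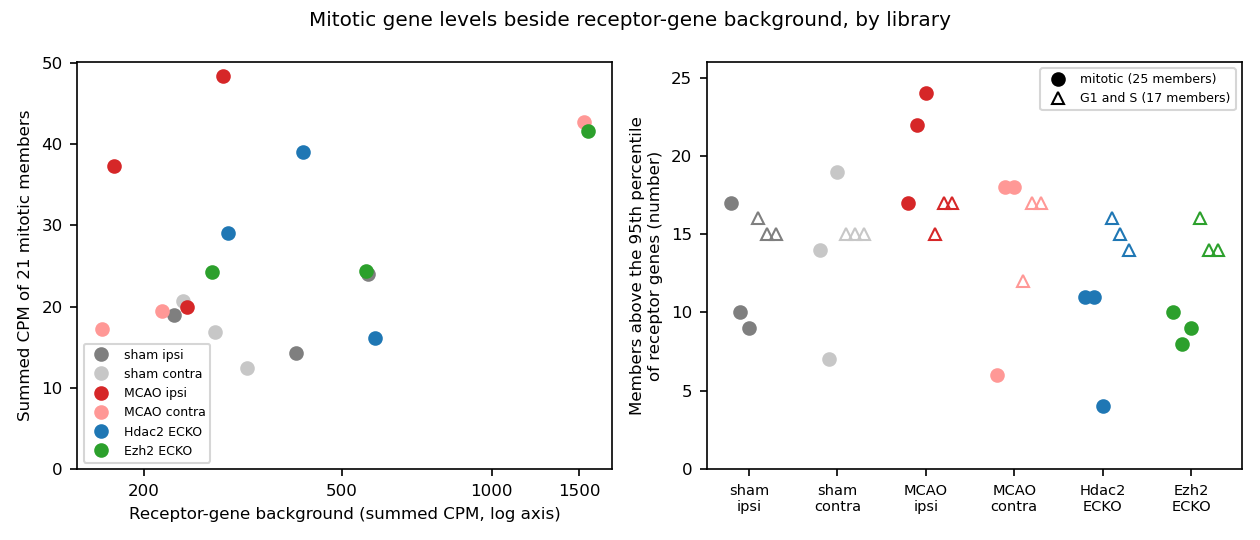
Left, the summed CPM of the 21 mitotic members of mean under 5 CPM (linear axis) against the summed CPM of 1466 receptor genes (log axis), 1 point per library and 1 colour per group. Right, the number of members above the 95th percentile of receptor genes in CPM per kb in each library, filled circles for 25 mitotic and open triangles for 17 G1 and S members. MCAO contralateral replicate 1 and Ezh2 ECKO replicate 2 sit at the far right of the left panel, and MCAO ipsilateral holds the highest mitotic counts of the right panel, 22 and 24.

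**Figure D2:**
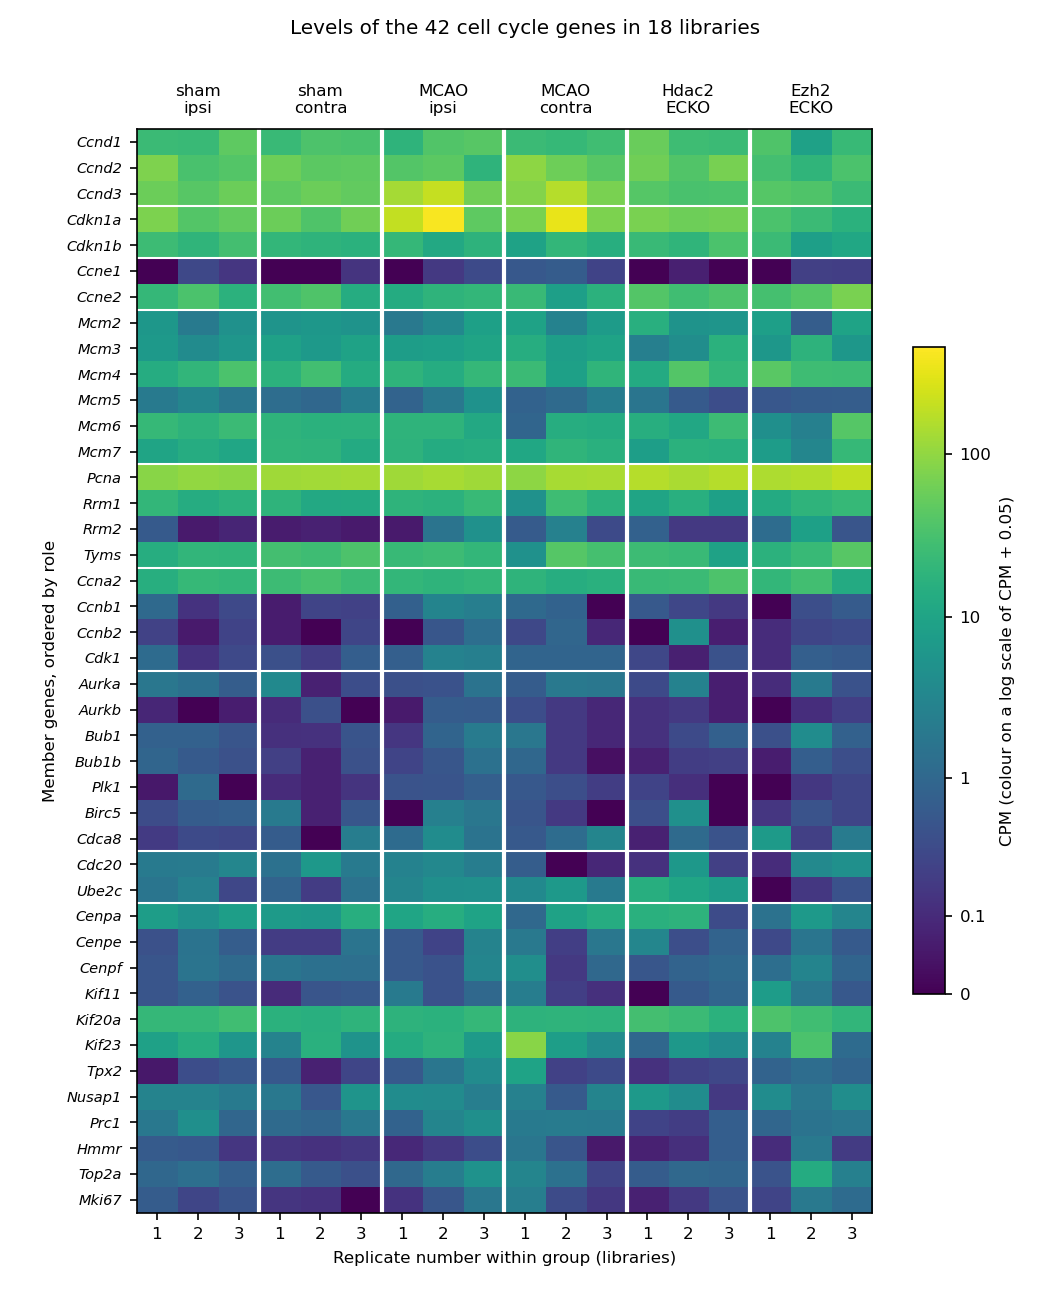
Levels of the 42 members (rows, ordered by role, white lines between roles) in the 18 libraries (columns, 3 per group), coloured by CPM on a log scale of CPM + 0.05. Pcna, Cdkn1a and the D-type cyclins are bright throughout, and most mitotic rows stay under 5 CPM, at the dark end.

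Of the 42 members, 2 were called, in 1 of the 8 comparisons. Cdkn1a and Ccnd3 fell in Ezh2 ECKO against MCAO ipsilateral, where 1.46% of all genes were called. Both calls were lost with receptor level as a covariate and without some single libraries. A member that was not called was not shown to be unchanged. A member was called at a Benjamini-Hochberg adjusted p under 0.05 by the quasi-likelihood test of edgeR, over all 17094 genes. In MCAO ipsilateral against sham ipsilateral 0 members were called, where 0% of all genes were called, and 4 had an unadjusted p under 0.05 (7.08% of all genes), all higher. In MCAO contralateral against sham contralateral 0 were called (0% of all genes), and 7 had an unadjusted p under 0.05 (4.41% of all genes), 6 higher and 1 lower. In MCAO ipsilateral against MCAO contralateral 0 were called (0% of all genes), with 2 under an unadjusted 0.05 (3.08% of all genes). In sham ipsilateral against sham contralateral 0 were called (0%), with 0 under an unadjusted 0.05 (1.85% of all genes). The difference of the occlusion effect between the sides called 0 members (0%), with 0 under an unadjusted 0.05 (3.38% of all genes). DESeq2, run as the other tool, called 0 members in these 5 comparisons as well, where it called 0.368%, 0.162%, 0.0361%, 0.0233% and 0.0233% of all genes in the order given.

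In Hdac2 ECKO against MCAO ipsilateral 0 members were called by edgeR (0.0117% of all genes, 2 genes), 5 had an unadjusted p under 0.05 (9.85% of all genes), all lower. DESeq2 called 2 there, Ccnd3 and Prc1, both lower (1.6% of all genes). In Ezh2 ECKO against MCAO ipsilateral 2 members were called, both lower (1.46% of all genes), and 5 had an unadjusted p under 0.05 (19.2% of all genes), while DESeq2 called 4, adding Ccne2 and Ube2c (9.94% of all genes). In Hdac2 ECKO against Ezh2 ECKO 0 were called by edgeR (0.123% of all genes), 5 had an unadjusted p under 0.05 (11.2% of all genes), and DESeq2 called 1, Ube2c (4.82% of all genes). MCAO against sham over both sides, a comparison added after the separate sides had been seen, called 0 members by edgeR (0.152% of all genes), with 5 under an unadjusted 0.05 (9.09% of all genes). DESeq2 called 4 there, Ccnd3, Cdkn1a, Rrm2 and Tpx2, all higher (1.98% of all genes).

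Complete separation of the 3 libraries of one group from the 3 of the other was common among all genes. It held for 8 of 42 members in MCAO ipsilateral against sham ipsilateral (27.7% of all genes), all higher: Ccnd3, Mcm3, Pcna, Tyms, Cdca8, Ube2c, Cenpa and Tpx2. On the contralateral side it held for 12 members (9.65% of all genes), 9 higher and 3 lower. It held for 1 member between the MCAO sides (5.37% of all genes) and for 6 between the sham sides (15.4%). Against MCAO ipsilateral it held for 15 members in Hdac2 ECKO (19.9% of all genes), 4 higher and 11 lower, and for 10 in Ezh2 ECKO (29% of all genes), 3 higher and 7 lower. Between the ECKO groups it held for 5 members (12.1% of all genes).

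Fitted log2 changes of the members leaned one way in some comparisons. In MCAO ipsilateral against sham ipsilateral 34 of 42 were positive, with a median of 0.41 against -0.09 over all genes. On the contralateral side 28 were positive, with a median of 0.37 against 0.17. In Hdac2 ECKO against MCAO ipsilateral 25 were negative, with a median of -0.28 against 0.11 over all genes. The 25 mitotic members had a median of -1.24 in Hdac2 ECKO and -0.06 in Ezh2 ECKO against MCAO ipsilateral. For MCAO against sham their median was 0.62 ipsilaterally and 0.97 contralaterally. Of these 25, 21 had a mean under 5 CPM. For Ezh2 ECKO the sign of the members' median turned with the scaling, from -0.09 with 17 positive under TMM to 0.09 with 23 positive under RLE (relative log expression), while the median of all genes moved from 0.17 to 0.36. These counts and medians are descriptions and were given no test, and the comparisons that use MCAO ipsilateral share its 3 libraries.

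**Figure D3:**
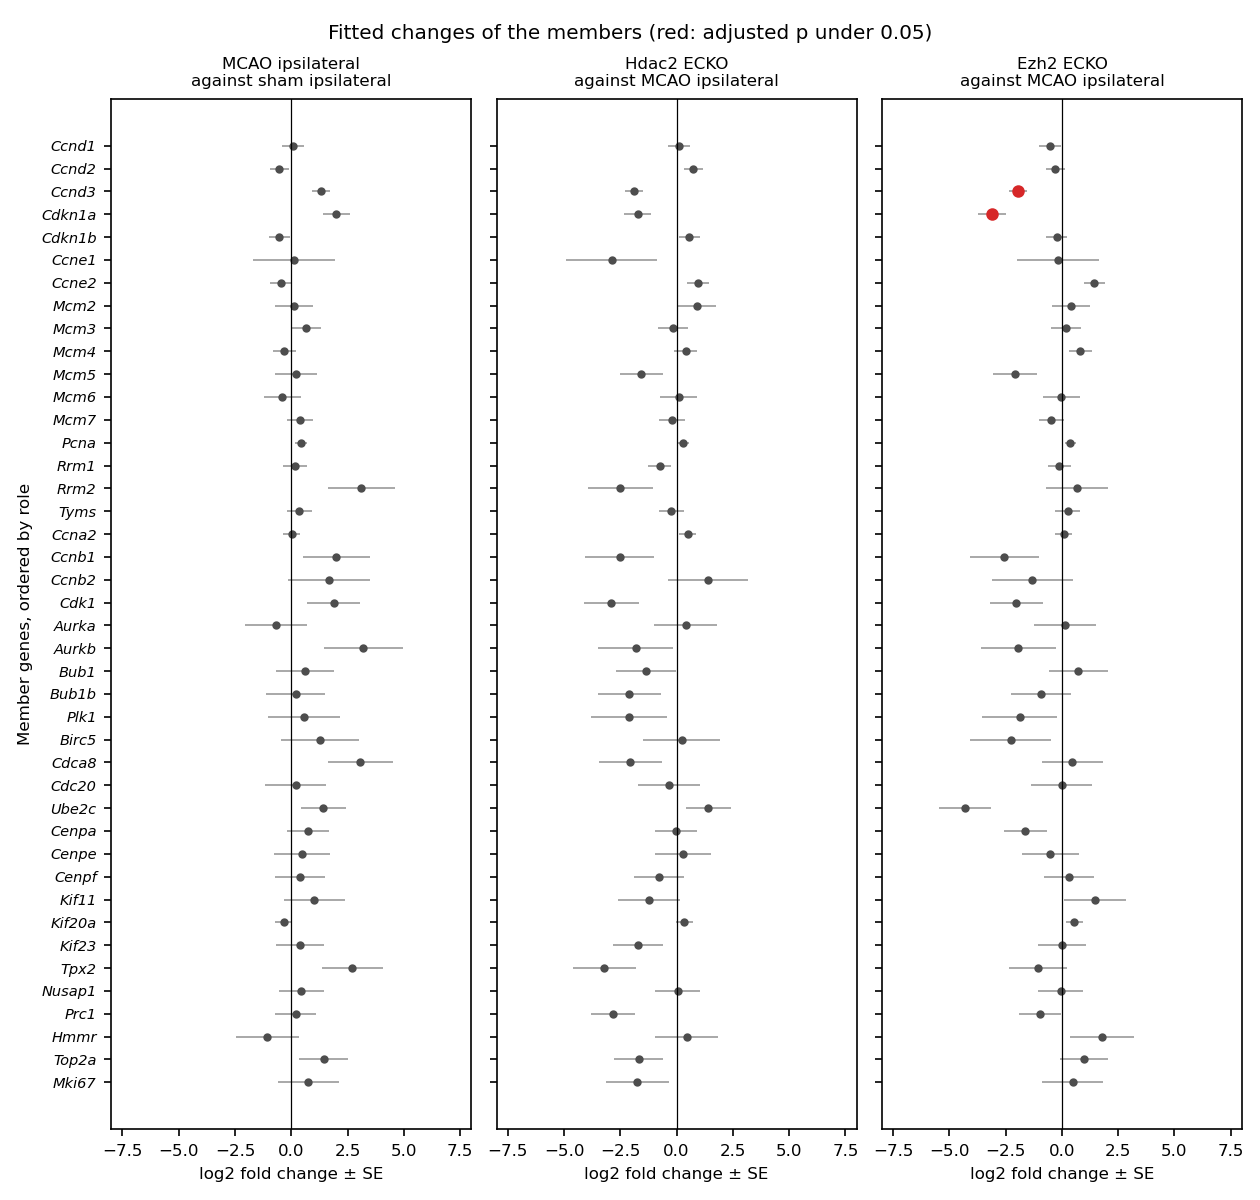
Fitted log2 fold changes (points) ± SE (bars) of the 42 members, ordered by role, in 3 comparisons: MCAO ipsilateral against sham ipsilateral, and Hdac2 ECKO and Ezh2 ECKO each against MCAO ipsilateral. All 3 panels use the same MCAO ipsilateral libraries, and the red points, Ccnd3 and Cdkn1a in the right panel, are the 2 called members.

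Cyclin D3, encoded by Ccnd3 (chr17:47505051-47599691, + strand, GRCm38), is a partner of CDK4 and CDK6 that opens G1. Its level was 58.4, 42.4 and 58.5 CPM in sham ipsilateral, 46.8, 58.9 and 50.4 in sham contralateral, 133, 205 and 63.4 in MCAO ipsilateral and 83.1, 163 and 71.9 in MCAO contralateral (replicates 1, 2 and 3, the order used throughout). Sham libraries lay between 42.4 and 58.9 CPM, below all 6 MCAO libraries, in which MCAO ipsilateral replicate 2 and MCAO contralateral replicate 2 were highest. In the deletion groups Ccnd3 was at 40.3, 33.5 and 34.0 CPM in Hdac2 ECKO and 41.4, 36.8 and 24.9 in Ezh2 ECKO. All 6 of these libraries lay below every sham and every MCAO library. On the log2 scale Ccnd3 fell by 1.96 ± 0.41 (SE) in Ezh2 ECKO, from 133.6 ± 70.6 CPM (SD, n = 3) in MCAO ipsilateral to 34.4 ± 8.48 CPM, with an edgeR adjusted p of 0.0291. For Hdac2 ECKO, at 35.9 ± 3.82 CPM (SD, n = 3), the log2 difference was -1.90 ± 0.40 (SE), with an edgeR adjusted p of 0.161. It was called by DESeq2 (-1.82, adjusted p 0.00457) and by edgeR without the 2 libraries of highest receptor level (-1.87, adjusted p 0.0422). Hdac2 ECKO and Ezh2 ECKO differed by 0.06 ± 0.39 on the log2 scale (Hdac2 minus Ezh2), with 0.10 without Ezh2 ECKO replicate 2, and that sign turned under RLE scaling.

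Occlusion gave Ccnd3 log2 differences of 1.33 ± 0.40 (SE, edgeR adjusted p 0.509) on the ipsilateral side and 1.03 ± 0.40 (edgeR adjusted p 0.920) on the contralateral side. Over both sides the difference was 1.18 ± 0.28, with an edgeR adjusted p of 0.0886. In edgeR with all libraries neither side alone nor both together passed the threshold. Over both sides Ccnd3 was called by DESeq2 (1.21, adjusted p 0.00792), and by edgeR with the receptor covariate (1.15, adjusted p 0.0436) and without the 2 libraries of highest receptor level (1.24, adjusted p 0.0232). Without MCAO ipsilateral replicate 2 the ipsilateral difference was 0.89, and without MCAO contralateral replicate 2 the contralateral one was 0.55. Exons of Ccnd3 share 361 bases with Bysl on the opposite strand, and since no strand setting is given their reads cannot be told apart there. Exons of 11 of the 42 members overlap those of a protein-coding gene. Ccnd1 shares 1100 bases with LTO1, Cdca8 232 with 9930104L06Rik and Nusap1 172 with Oip5, all on the opposite strand. Cdkn1a shares 273 bases with AC167363.2, also on the opposite strand.

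Cyclin D1 and cyclin D2, the other D-type cyclins, were not called in any comparison. Ccnd1 was at 24.5, 24.2 and 46.4 CPM in sham ipsilateral, 23.9, 35.9 and 32.6 in sham contralateral, 18.4, 38.1 and 42.6 in MCAO ipsilateral, 24.8, 22.4 and 27.1 in MCAO contralateral, 56.2, 26.1 and 25.1 in Hdac2 ECKO and 36.5, 9.10 and 23.1 in Ezh2 ECKO. The groups overlapped throughout, from 9.10 CPM in Ezh2 ECKO replicate 2 to 56.2 CPM in Hdac2 ECKO replicate 1. Ccnd2 was at 76.9, 32.8 and 39.5 CPM in sham ipsilateral, 61.2, 45.4 and 46.5 in sham contralateral, 39.9, 45.2 and 18.3 in MCAO ipsilateral, 94.5, 60.6 and 43.0 in MCAO contralateral, 62.9, 38.2 and 70.7 in Hdac2 ECKO and 29.8, 19.5 and 34.5 in Ezh2 ECKO. Its lowest value, 18.3 CPM, was in MCAO ipsilateral replicate 3, and its highest, 94.5 CPM, in MCAO contralateral replicate 1. The log2 difference of Ccnd2 between the MCAO sides was -0.94 ± 0.43 (SE), at an unadjusted p of 0.0399 and an edgeR adjusted p of 1, and -0.61 without MCAO contralateral replicate 1. All 3 Hdac2 ECKO libraries lay above all 3 Ezh2 ECKO libraries for Ccnd2, with a log2 difference of 1.04 ± 0.43 and an edgeR adjusted p of 0.366.

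p21, the CDK inhibitor encoded by Cdkn1a (chr17:29090976-29100727, + strand), is a classical target of p53 and of stress signals. Cdkn1a was at 75.3, 38.9 and 50.2 CPM in sham ipsilateral, 58.0, 37.0 and 63.2 in sham contralateral, 196, 415 and 47.2 in MCAO ipsilateral and 72.8, 333 and 75.2 in MCAO contralateral. Of the MCAO libraries, ipsilateral replicates 1 and 2 and contralateral replicate 2 lay far above the rest, at 196, 415 and 333 CPM, while MCAO ipsilateral replicate 3, at 47.2 CPM, was within the sham range. In the deletion groups the level was 72.9, 60.4 and 65.3 CPM in Hdac2 ECKO and 34.7, 24.9 and 16.7 in Ezh2 ECKO. Every Ezh2 ECKO library lay below every library of the other 5 groups, and Hdac2 ECKO lay within the range of sham. In Ezh2 ECKO Cdkn1a fell by 3.11 ± 0.64 (SE) on the log2 scale, from 219.4 ± 185 CPM (SD, n = 3) in MCAO ipsilateral to 25.4 ± 9.00 CPM, with an edgeR adjusted p of 0.0291.

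Hdac2 ECKO, at 66.2 ± 6.28 CPM, gave a log2 difference of -1.73 ± 0.60 (SE) from MCAO ipsilateral, with an edgeR adjusted p of 0.406 (-0.88 without MCAO ipsilateral replicate 2), and its range overlapped that of MCAO ipsilateral. Between the ECKO groups the log2 difference of Cdkn1a was 1.38 ± 0.60, with an edgeR adjusted p of 0.388, and all 3 Hdac2 ECKO libraries were higher. Occlusion gave 2.00 ± 0.61 (edgeR adjusted p 0.509) ipsilaterally, 1.60 ± 0.60 (edgeR adjusted p 0.920) contralaterally and 1.80 ± 0.43 (edgeR adjusted p 0.0882) over both sides. The last was called by DESeq2 (1.82, adjusted p 0.00729), and by edgeR with the receptor covariate (1.68, adjusted p 0.0442) and without the 2 libraries of highest receptor level (1.96, adjusted p 0.0216). Without MCAO ipsilateral replicate 2 the ipsilateral difference was 1.15, and without MCAO contralateral replicate 2 the contralateral one was 0.47.

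The calls for Cdkn1a and Ccnd3 in Ezh2 ECKO depended on which libraries were fitted. Both were lost without Ezh2 ECKO replicate 2 or 3, or without MCAO ipsilateral replicate 1 or 2. The lowest difference came without MCAO ipsilateral replicate 2: -2.26 (edgeR adjusted p 0.186) for Cdkn1a and -1.51 (edgeR adjusted p 0.188) for Ccnd3. Without MCAO ipsilateral replicate 3 they were -3.63 (edgeR adjusted p 0.00599) and -2.34 (edgeR adjusted p 0.00863). Leaving out both libraries of highest receptor level gave -3.07 (edgeR adjusted p 0.0228) and -1.99 (edgeR adjusted p 0.0193). With receptor level as a covariate they were -2.37 (edgeR adjusted p 0.151) and -1.70 (edgeR adjusted p 0.132).

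The 3 libraries highest in Cdkn1a were also the 3 highest in Ccnd3, and the 3 highest in summed endothelial markers, at 26905 CPM in MCAO ipsilateral replicate 2, 25968 CPM in MCAO contralateral replicate 2 and 24114 CPM in MCAO ipsilateral replicate 1. In Ezh2 ECKO that sum was 11842, 7768 and 10019 CPM. Most of the sum in those 3 MCAO libraries was Ly6c1, a surface antigen of brain endothelium, at 17722, 17166 and 16050 CPM. Like Ly6c1, Pecam1, Cldn5, Tie1, Emcn and Slc2a1 lay lower in every Ezh2 ECKO library than in every MCAO ipsilateral library. Slc2a1 was at 1788, 2391 and 1195 CPM in MCAO ipsilateral and 944, 674 and 881 CPM in Ezh2 ECKO. Cdh5 and Flt1 overlapped between these groups. Kdr and Tek, chosen after their values were seen, ran the other way. Kdr, the VEGF receptor, was at 140, 155 and 293 CPM in MCAO ipsilateral and 580, 395 and 504 CPM in Ezh2 ECKO, with a log2 difference of 1.33 ± 0.34 (SE, edgeR adjusted p 0.0527). Tek, the angiopoietin receptor, was at 416, 278 and 400 CPM and 697, 706 and 697 CPM, with a log2 difference of 0.94 ± 0.29 (edgeR adjusted p 0.0907). Of the 10 endothelial markers, Ly6c1 was the only one called in Ezh2 ECKO against MCAO ipsilateral, with a log2 difference of -2.03 ± 0.42 (SE) and an edgeR adjusted p of 0.0291. Red cell markers moved in the same comparison, with 5 of 6 called lower: Hba-a1, Hba-a2, Hbb-bs, Hbb-bt and Alas2. So was Gpr17 of the oligodendrocyte lineage list, with a log2 difference of -7.79 ± 1.62 (SE, edgeR adjusted p 0.0291). Microglia and leukocyte, pericyte, astrocyte, neuron, neutrophil and fibroblast lists held 0 called genes there. The part of these markers in the change of Cdkn1a and Ccnd3 was not tested.

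Cdkn1b, which encodes the CDK inhibitor p27, was at 25.9, 19.6 and 29.2 CPM in sham ipsilateral, 20.9, 18.6 and 16.9 in sham contralateral, 21.7, 12.1 and 18.0 in MCAO ipsilateral, 9.48, 20.6 and 15.1 in MCAO contralateral, 23.8, 19.2 and 33.6 in Hdac2 ECKO and 24.3, 8.42 and 11.3 in Ezh2 ECKO. It ran from 8.42 CPM in Ezh2 ECKO replicate 2 to 33.6 CPM in Hdac2 ECKO replicate 3, with overlapping groups in every comparison. Its log2 difference was -0.23 ± 0.47 (SE) in Ezh2 ECKO (0.0194 without Ezh2 ECKO replicate 2) and 0.56 ± 0.47 in Hdac2 ECKO against MCAO ipsilateral, and -0.53 ± 0.47 in MCAO ipsilateral against sham ipsilateral.

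**Figure D4:**
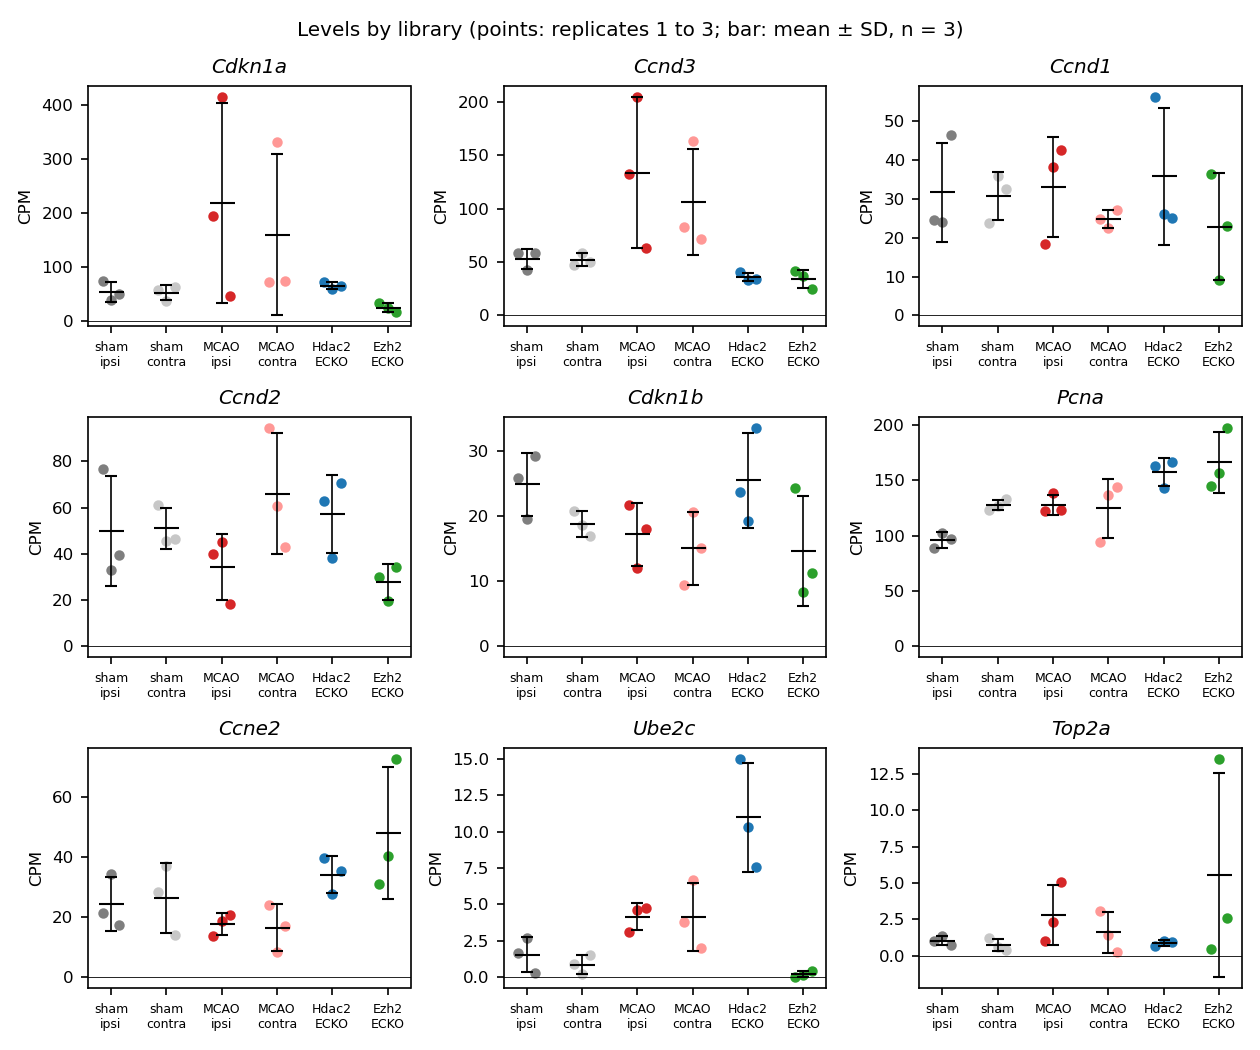
CPM of 9 members in each of the 18 libraries (points, replicates 1 to 3 from left to right in each group) with the group mean and SD (bars, n = 3), on linear axes that differ between panels. Cdkn1a and Ccnd3 are high in some MCAO libraries and low in all Ezh2 ECKO libraries. Ube2c is highest in Hdac2 ECKO, at 7.59 to 15.0 CPM, and at 0 to 0.447 CPM in Ezh2 ECKO, which overlaps sham.

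The E-type cyclins, which activate CDK2 at the entry to S phase, differed from each other in level. Ccne2 was at 21.3, 34.6 and 17.4 CPM in sham ipsilateral, 28.6, 37.0 and 14.0 in sham contralateral, 13.7, 18.7 and 20.7 in MCAO ipsilateral, 24.1, 8.41 and 17.2 in MCAO contralateral, 39.8, 27.7 and 35.4 in Hdac2 ECKO and 31.1, 40.3 and 72.9 in Ezh2 ECKO. All ECKO libraries, at 27.7 CPM or more, lay above the MCAO ipsilateral libraries, which ended at 20.7 CPM, and they overlapped the sham libraries. The log2 difference of Ccne2 from MCAO ipsilateral was 1.44 ± 0.48 (SE, edgeR adjusted p 0.112) in Ezh2 ECKO and 0.95 ± 0.47 (edgeR adjusted p 0.516) in Hdac2 ECKO. The first was called by DESeq2 alone (adjusted p 0.0273). Exons of Ccne2 share 609 bases with Ints8 on the opposite strand. Ccne1 was at 0, 0.310 and 0.161 CPM in sham ipsilateral, 0, 0 and 0.144 in sham contralateral, 0, 0.177 and 0.335 in MCAO ipsilateral, 0.565, 0.653 and 0.257 in MCAO contralateral, 0, 0.0602 and 0 in Hdac2 ECKO and 0, 0.228 and 0.224 in Ezh2 ECKO. It was at 0 in 7 libraries and had at most 30 counts in a library. A count of 0 allows up to 0.0619 to 0.101 CPM, the value of 3 counts in these libraries, counting error only. This takes counts as independent, but 77.3% to 89.4% of those from 1 to 20 were even per library, so the limit may be higher.

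MCM2 to MCM7 form the ring-shaped helicase loaded at replication origins in G1. None of the 6 was called in any comparison, and their summed level ran from 51.9 to 106.0 CPM over the 18 libraries, with overlap between all groups. Mcm2 was at 6.15, 2.05 and 5.03 CPM in sham ipsilateral, 5.52, 6.22 and 5.38 in sham contralateral, 1.91, 3.44 and 8.95 in MCAO ipsilateral, 9.45, 2.74 and 7.33 in MCAO contralateral, 15.5, 5.36 and 5.65 in Hdac2 ECKO and 8.47, 0.683 and 9.67 in Ezh2 ECKO. Mcm5, the lowest of the 6, was at 2.06, 3.07 and 1.71 CPM in sham ipsilateral, 1.23, 1.01 and 2.21 in sham contralateral, 0.866, 1.88 and 5.12 in MCAO ipsilateral, 0.816, 1.13 and 2.27 in MCAO contralateral, 1.65, 0.602 and 0.382 in Hdac2 ECKO and 0.539, 0.654 and 0.671 in Ezh2 ECKO. All 3 Ezh2 ECKO libraries of Mcm5 lay below MCAO ipsilateral, with a log2 difference of -2.07 ± 0.97 (SE), an unadjusted p of 0.0456 and an edgeR adjusted p of 0.250. Mcm6 was at 22.2, 18.0 and 24.6 CPM in sham ipsilateral, 18.6, 16.5 and 17.6 in sham contralateral, 18.6, 18.5 and 12.3 in MCAO ipsilateral, 0.942, 14.3 and 13.7 in MCAO contralateral, 15.3, 11.8 and 25.5 in Hdac2 ECKO and 4.53, 2.56 and 41.3 in Ezh2 ECKO. It was low in single libraries, at 0.942 CPM in MCAO contralateral replicate 1 and at 4.53 and 2.56 CPM in Ezh2 ECKO replicates 1 and 2, while Ezh2 ECKO replicate 3 held the highest value, 41.3 CPM. Mcm3 ran from 2.51 to 18.0 CPM, Mcm4 from 8.91 to 43.5 CPM and Mcm7 from 3.19 to 22.6 CPM. The log2 difference of Mcm4 in Ezh2 ECKO was 0.81 ± 0.51, with all 3 libraries above MCAO ipsilateral and an edgeR adjusted p of 0.369. Mcm7 shares 321 exon bases with Ap4m1 and 64 with Cops6.

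PCNA is the sliding clamp of DNA polymerases and also serves DNA repair, so its RNA is not limited to dividing cells. Pcna was at 88.7, 103 and 97.0 CPM in sham ipsilateral, 124, 127 and 133 in sham contralateral, 122, 138 and 124 in MCAO ipsilateral, 94.2, 136 and 144 in MCAO contralateral, 163, 143 and 166 in Hdac2 ECKO and 145, 157 and 197 in Ezh2 ECKO. Sham ipsilateral was the lowest group, at 96.1 ± 7.02 CPM (SD, n = 3), and every Hdac2 and Ezh2 ECKO library lay above every MCAO ipsilateral library. The log2 differences were small: 0.41 ± 0.27 (SE, edgeR adjusted p 0.752) in MCAO ipsilateral against sham ipsilateral, -0.41 ± 0.27 (edgeR adjusted p 1.00) between the sham sides, 0.30 ± 0.26 (edgeR adjusted p 0.740) in Hdac2 ECKO and 0.38 ± 0.26 (edgeR adjusted p 0.419) in Ezh2 ECKO. None passed the test.

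Ribonucleotide reductase makes deoxynucleotides from a large subunit, Rrm1, and a small subunit, Rrm2, that is made mainly in S phase. Rrm1 was at 20.9, 14.0 and 17.6 CPM in sham ipsilateral, 18.5, 12.2 and 12.6 in sham contralateral, 18.5, 17.3 and 23.2 in MCAO ipsilateral, 5.02, 26.3 and 17.4 in MCAO contralateral, 10.2, 15.8 and 8.82 in Hdac2 ECKO and 13.2, 18.6 and 22.1 in Ezh2 ECKO. Rrm2 was at 0.619, 0.0477 and 0.0803 CPM in sham ipsilateral, 0.0511, 0.0673 and 0.0480 in sham contralateral, 0.0456, 1.63 and 4.88 in MCAO ipsilateral, 0.628, 2.70 and 0.343 in MCAO contralateral, 0.793, 0.181 and 0.176 in Hdac2 ECKO and 1.19, 8.71 and 0.503 in Ezh2 ECKO. Rrm1 was thus present in every library, while Rrm2 stayed near the level of a few counts in 5 of 6 sham libraries and reached 8.71 CPM in Ezh2 ECKO replicate 2 and 4.88 CPM in MCAO ipsilateral replicate 3. The log2 difference of Rrm2 between MCAO and sham was 3.75 ± 1.10 (SE) over both sides, with an edgeR adjusted p of 0.199 and a DESeq2 adjusted p of 0.00585, and 4.40 ± 1.62 (edgeR adjusted p 0.920) contralaterally. Between the sham sides it was 2.12 ± 1.51 and turned negative when only those libraries were fitted. Thymidylate synthase, Tyms, was at 14.7, 20.02 and 19.5 CPM in sham ipsilateral, 29.1, 26.2 and 35.0 in sham contralateral, 23.1, 26.04 and 20.6 in MCAO ipsilateral, 4.99, 40.5 and 31.0 in MCAO contralateral, 25.8, 24.0 and 9.29 in Hdac2 ECKO and 17.1, 23.3 and 42.7 in Ezh2 ECKO. All 3 MCAO ipsilateral libraries of Tyms lay just above sham ipsilateral, and MCAO contralateral replicate 1 was lowest of all, at 4.99 CPM.

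Cyclin A2 acts with CDK2 in S phase and with CDK1 in G2, and the B-type cyclins with CDK1 start mitosis. Ccna2 was at 15.2, 22.6 and 21.03 CPM in sham ipsilateral, 25.4, 31.7 and 25.1 in sham contralateral, 20.5, 18.5 and 20.4 in MCAO ipsilateral, 18.5, 14.6 and 15.9 in MCAO contralateral, 23.6, 24.4 and 35.1 in Hdac2 ECKO and 21.1, 28.3 and 13.1 in Ezh2 ECKO. It was the highest of these 4 in every library, and its exons share 510 bases with Exosc9 on the opposite strand. MCAO contralateral lay below sham contralateral in all libraries, with a log2 difference of -0.75 ± 0.40 (SE) and an edgeR adjusted p of 0.920.

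Cdk1, the mitotic kinase whose promoter is shown above, was at 1.16, 0.143 and 0.321 CPM in sham ipsilateral, 0.409, 0.202 and 0.720 in sham contralateral, 0.729, 2.78 and 2.49 in MCAO ipsilateral, 0.879, 0.893 and 0.900 in MCAO contralateral, 0.297, 0.0602 and 0.441 in Hdac2 ECKO and 0.108, 0.740 and 0.615 in Ezh2 ECKO. MCAO ipsilateral replicates 2 and 3, at 2.78 and 2.49 CPM, were the highest libraries, and replicate 1 of that group lay within the sham range. Replicates 2 and 3 also held the highest microglia and leukocyte marker sums, 22.8 and 22.7 CPM, whose part was not tested. The log2 difference of Cdk1 from MCAO ipsilateral was -2.89 ± 1.22 (SE, unadjusted p 0.0277, edgeR adjusted p 0.462) in Hdac2 ECKO, where all 3 libraries were lower. In Ezh2 ECKO it was -2.03 ± 1.18 (edgeR adjusted p 0.340). Ccnb1 was at 1.07, 0.143 and 0.321 CPM in sham ipsilateral, 0.0511, 0.269 and 0.240 in sham contralateral, 0.775, 3.05 and 2.39 in MCAO ipsilateral, 1.07, 0.828 and 0 in MCAO contralateral, 0.595, 0.301 and 0.176 in Hdac2 ECKO and 0, 0.398 and 0.643 in Ezh2 ECKO. It too was highest in MCAO ipsilateral replicates 2 and 3, and both ECKO groups lay wholly below MCAO ipsilateral, with log2 differences of -2.53 ± 1.54 (edgeR adjusted p 0.615) in Hdac2 ECKO and -2.57 ± 1.54 (edgeR adjusted p 0.353) in Ezh2 ECKO. Ccnb2 ran from 0 to 4.75 CPM, was at 0 in 3 libraries, and had its highest value in Hdac2 ECKO replicate 2.

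Among the mitotic kinases and checkpoint genes none was called. Aurora B (Aurkb), survivin (Birc5) and borealin (Cdca8) form the chromosomal passenger complex. Aurkb was at 0.0825, 0 and 0.0535 CPM in sham ipsilateral, 0.102, 0.404 and 0 in sham contralateral, 0.0456, 0.662 and 0.622 in MCAO ipsilateral, 0.377, 0.174 and 0.0857 in MCAO contralateral, 0.132, 0.181 and 0.0588 in Hdac2 ECKO and 0, 0.114 and 0.224 in Ezh2 ECKO. Birc5 was at 0.371, 0.667 and 0.749 CPM in sham ipsilateral, 2.04, 0.0673 and 0.528 in sham contralateral, 0, 2.60 and 1.77 in MCAO ipsilateral, 0.502, 0.174 and 0 in MCAO contralateral, 0.397, 4.69 and 0 in Hdac2 ECKO and 0.162, 0.455 and 0.280 in Ezh2 ECKO. Both were at 0 in 3 libraries. Cdca8 was at 0.186, 0.334 and 0.294 CPM in sham ipsilateral, 0.664, 0 and 2.28 in sham contralateral, 1.14, 4.17 and 1.58 in MCAO ipsilateral, 0.596, 1.20 and 3.15 in MCAO contralateral, 0.0661, 1.11 and 0.470 in Hdac2 ECKO and 7.12, 0.228 and 2.18 in Ezh2 ECKO. Cdca8 lay higher in all 3 MCAO ipsilateral than in all 3 sham ipsilateral libraries, with a log2 difference of 3.07 ± 1.46 (SE), an unadjusted p of 0.0473 and an edgeR adjusted p of 0.702, and its highest value was in Ezh2 ECKO replicate 1, at 7.12 CPM.

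BUB1 and BUBR1 (Bub1b) hold the spindle checkpoint, PLK1 drives several mitotic steps, and Aurora A (Aurka) acts at spindle poles. Bub1 was at 0.784, 0.786 and 0.508 CPM in sham ipsilateral, 0.128, 0.135 and 0.480 in sham contralateral, 0.160, 0.883 and 2.15 in MCAO ipsilateral, 1.79, 0.174 and 0.0857 in MCAO contralateral, 0.132, 0.331 and 0.764 in Hdac2 ECKO and 0.404, 4.13 and 0.783 in Ezh2 ECKO. Plk1 was at 0.0413, 1.10 and 0 CPM in sham ipsilateral, 0.102, 0.0673 and 0.144 in sham contralateral, 0.456, 0.485 and 0.742 in MCAO ipsilateral, 0.565, 0.392 and 0.214 in MCAO contralateral, 0.264, 0.120 and 0 in Hdac2 ECKO and 0, 0.171 and 0.280 in Ezh2 ECKO. Bub1 was highest in Ezh2 ECKO replicate 2, at 4.13 CPM, and Plk1 in sham ipsilateral replicate 2, at 1.10 CPM. Plk1 lay below MCAO ipsilateral in all libraries of both ECKO groups, at 0 in 1 library of each. Bub1b ran from 0.0214 to 1.44 CPM and Aurka from 0.0588 to 3.68 CPM.

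The anaphase-promoting complex ends mitosis by ubiquitination, with CDC20 as its activator and UBE2C as its ubiquitin-conjugating enzyme. Ube2c (chr2:164769898-164778822, + strand) was at 1.65, 2.67 and 0.294 CPM in sham ipsilateral, 0.869, 0.202 and 1.51 in sham contralateral, 3.08, 4.63 and 4.74 in MCAO ipsilateral, 3.77, 6.67 and 1.97 in MCAO contralateral, 15.0, 10.4 and 7.59 in Hdac2 ECKO and 0, 0.171 and 0.447 in Ezh2 ECKO. Hdac2 ECKO held the 3 highest libraries of all 18, and every Ezh2 ECKO library lay below every MCAO library. Counts were 454, 344 and 258 in Hdac2 ECKO against 0, 6 and 16 in Ezh2 ECKO. Ezh2 ECKO overlapped sham, where sham ipsilateral replicate 3 was at 0.294 CPM and sham contralateral replicate 2 at 0.202 CPM. Against MCAO ipsilateral the log2 difference was 1.40 ± 1.01 (SE, edgeR adjusted p 0.678) in Hdac2 ECKO and -4.31 ± 1.15 (edgeR adjusted p 0.0575) in Ezh2 ECKO. Neither passed the test in edgeR, while DESeq2 called the second (adjusted p 0.000580). Between the 2 ECKO groups Ube2c differed by 5.72 ± 1.23, with all 3 libraries of Hdac2 ECKO higher, an edgeR adjusted p of 0.0679 and a DESeq2 adjusted p of 3.50e-07. Exons of Ube2c share 592 bases with Tnnc2 on the opposite strand.

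Cdc20 was at 2.06, 2.14 and 3.26 CPM in sham ipsilateral, 1.43, 6.46 and 2.07 in sham contralateral, 2.80, 3.44 and 2.30 in MCAO ipsilateral, 0.691, 0 and 0.0857 in MCAO contralateral, 0.132, 6.44 and 0.235 in Hdac2 ECKO and 0.108, 3.58 and 4.75 in Ezh2 ECKO. MCAO contralateral lay below all 3 sham contralateral and all 3 MCAO ipsilateral libraries, with log2 differences of -3.69 ± 1.54 (SE, edgeR adjusted p 0.920) against sham and 3.48 ± 1.53 (edgeR adjusted p 1) for ipsilateral against contralateral. The difference of the occlusion effect between the sides was 3.89 ± 2.02, with an edgeR adjusted p of 0.941. Without MCAO contralateral replicate 1 these 3 were -6.15, 5.93 and 6.36, and none was called. Hdac2 ECKO and Ezh2 ECKO each held both low and high libraries of Cdc20, from 0.108 to 6.44 CPM.

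The genes of the spindle, kinetochore and chromosome include Mki67, which encodes a proliferation antigen much used in histology. Mki67 was at 0.660, 0.286 and 0.482 CPM in sham ipsilateral, 0.153, 0.135 and 0 in sham contralateral, 0.137, 0.530 and 1.77 in MCAO ipsilateral, 2.45, 0.349 and 0.171 in MCAO contralateral, 0.0661, 0.181 and 0.470 in Hdac2 ECKO and 0.270, 1.96 and 1.17 in Ezh2 ECKO. It reached more than 1 CPM in 4 libraries, MCAO ipsilateral replicate 3, MCAO contralateral replicate 1 and Ezh2 ECKO replicates 2 and 3, and its highest count was 78. The log2 difference of Mki67 was 0.77 ± 1.36 (SE, edgeR adjusted p 0.899) ipsilaterally and 3.33 ± 1.50 (edgeR adjusted p 0.920) contralaterally for MCAO against sham, and 2.29 ± 1.45 (edgeR adjusted p 1.00) for sham ipsilateral against sham contralateral. Without MCAO contralateral replicate 1 the contralateral difference was 1.46 (edgeR adjusted p 0.796), and without MCAO ipsilateral replicate 3 the ipsilateral one was -0.48.

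Topoisomerase II alpha, Top2a, untangles replicated chromosomes and was at 0.990, 1.36 and 0.749 CPM in sham ipsilateral, 1.23, 0.605 and 0.408 in sham contralateral, 1.03, 2.34 and 5.07 in MCAO ipsilateral, 3.11, 1.44 and 0.279 in MCAO contralateral, 0.661, 1.02 and 0.941 in Hdac2 ECKO and 0.458, 13.5 and 2.60 in Ezh2 ECKO. Its highest value, 13.5 CPM, was in Ezh2 ECKO replicate 2, one of the libraries of highest receptor level. The log2 difference of Hdac2 ECKO from Ezh2 ECKO was -2.66 ± 1.13 (SE, edgeR adjusted p 0.380), and -0.83 (edgeR adjusted p 0.928) without that library. In MCAO ipsilateral against sham ipsilateral it was 1.44 ± 1.09 (edgeR adjusted p 0.788).

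Kinesin-5 (Kif11) pushes spindle poles apart, and CENP-F (Cenpf) sits at the kinetochore. Kif11 was at 0.495, 0.810 and 0.455 CPM in sham ipsilateral, 0.102, 0.504 and 0.576 in sham contralateral, 2.10, 0.441 and 1.052 in MCAO ipsilateral, 2.35, 0.218 and 0.129 in MCAO contralateral, 0, 0.602 and 0.911 in Hdac2 ECKO and 7.71, 1.79 and 0.559 in Ezh2 ECKO. Cenpf was at 0.495, 1.60 and 1.10 CPM in sham ipsilateral, 1.66, 1.41 and 1.34 in sham contralateral, 0.593, 0.441 and 3.16 in MCAO ipsilateral, 4.39, 0.174 and 1.03 in MCAO contralateral, 0.529, 0.843 and 1.06 in Hdac2 ECKO and 1.29, 3.04 and 0.895 in Ezh2 ECKO. Kif11 was highest in Ezh2 ECKO replicate 1 and Cenpf in MCAO contralateral replicate 1, and the groups overlapped for both. PRC1 bundles microtubules of the central spindle, and Prc1 was at 1.88, 4.58 and 0.963 CPM in sham ipsilateral, 1.12, 0.942 and 1.87 in sham contralateral, 0.821, 3.13 and 4.54 in MCAO ipsilateral, 2.07, 2.13 and 1.97 in MCAO contralateral, 0.264, 0.211 and 0.706 in Hdac2 ECKO and 0.944, 1.56 and 1.82 in Ezh2 ECKO. All 3 Hdac2 ECKO libraries lay below all MCAO ipsilateral libraries, at 0.394 ± 0.272 against 2.83 ± 1.88 CPM (SD, n = 3), with a log2 difference of -2.84 ± 0.99 (SE) and an edgeR adjusted p of 0.406. DESeq2 called it (adjusted p 0.0279). Prc1 shares 911 exon bases with Rccd1 on the opposite strand. HMMR, a spindle and hyaluronan-binding protein, had Hmmr levels of 0.639, 0.572 and 0.161 CPM in sham ipsilateral, 0.153, 0.135 and 0.168 in sham contralateral, 0.0912, 0.177 and 0.383 in MCAO ipsilateral, 1.73, 0.501 and 0.0428 in MCAO contralateral, 0.0661, 0.120 and 0.706 in Hdac2 ECKO and 0.108, 1.93 and 0.196 in Ezh2 ECKO. Its highest values were again in Ezh2 ECKO replicate 2 and MCAO contralateral replicate 1.

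Of the other 6 genes of this role, Kif20a, a central spindle kinesin, was the steadiest, from 15.6 to 34.9 CPM, and shares 1271 exon bases with Cdc23 on the opposite strand. Kif23, another kinesin of the central spindle, ran from 0.991 to 90.3 CPM, and its 2 highest libraries were MCAO contralateral replicate 1 and Ezh2 ECKO replicate 2. The centromeric histone gene Cenpa ran from 0.353 to 17.8 CPM and the kinetochore motor Cenpe from 0.202 to 3.24 CPM. Tpx2, an activator of Aurora A, ran from 0.0413 to 9.86 CPM, with its highest value in MCAO contralateral replicate 1. Its log2 difference over both sides was 3.10 ± 0.98 (SE, edgeR adjusted p 0.236) for MCAO against sham, called by DESeq2 (3.27, adjusted p 0.0102), and 1.33 (edgeR adjusted p 0.366) without that library. Nusap1 ran from 0.176 to 6.64 CPM. None of the 12 was called in any comparison by edgeR.

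Other genes of the cycle were taken from 5 lists of 129 genes, which were chosen with earlier results of these data known. In Ezh2 ECKO against MCAO ipsilateral 4 of them were called, where 1.46% of all genes were called, and 0 in the other 7 comparisons. Of 24 genes of pRb, E2F and the CDKs 1 rose: E2f5, a repressor-type E2F, was at 70.2, 53.3 and 68.5 CPM in MCAO ipsilateral and 180.3, 150.1 and 200.5 in Ezh2 ECKO, a log2 change of 1.47 ± 0.34 (SE, edgeR adjusted p 0.0379). Of 20 p53 targets and growth arrest genes 1 rose and 2 fell. Ccng2, an atypical cyclin linked to quiescence, was at 38.5, 38.5 and 43.0 CPM in MCAO ipsilateral and 123, 114 and 117 in Ezh2 ECKO, a log2 change of 1.56 ± 0.37 (edgeR adjusted p 0.0399). Both genes rose in all 3 libraries beyond the range of MCAO ipsilateral. In sham ipsilateral E2f5 was at 55.4, 85.3 and 82.3 CPM and Ccng2 at 45.8, 81.2 and 52.9 CPM. In Hdac2 ECKO E2f5 was at 123, 98.1 and 129 CPM and Ccng2 at 61.0, 103 and 120 CPM.

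Gadd45g and Gadd45b, stress-induced growth arrest genes, also fell in Ezh2 ECKO. Gadd45g was at 192, 217 and 138 CPM in MCAO ipsilateral and 31.4, 33.9 and 36.2 in Ezh2 ECKO, a log2 change of -2.43 ± 0.52 (SE, edgeR adjusted p 0.0291). Gadd45b was at 31.0, 41.9 and 23.6 CPM in MCAO ipsilateral and 2.80, 9.39 and 5.26 in Ezh2 ECKO, a log2 change of -2.47 ± 0.62 (edgeR adjusted p 0.0493). In sham ipsilateral Gadd45g was at 121, 35.7 and 43.9 CPM and Gadd45b at 17.6, 5.62 and 11.9 CPM, both overlapping Ezh2 ECKO. In Hdac2 ECKO Gadd45g was at 117, 149 and 115 CPM and Gadd45b at 45.3, 53.2 and 29.0 CPM. In the p53 and growth arrest list 14 of 20 log2 differences were negative, with a median of -0.63 against 0.17 over all genes. Called in this comparison were 0 of 5 tested other CDK inhibitors, 0 of 39 licensing and replisome genes and 0 of 39 tested further mitosis genes, whose medians were -0.43, -0.20 and 0.10. Each of the 4 calls was lost without Ezh2 ECKO replicate 1, 2 or 3 or MCAO ipsilateral replicate 1 or 2, singly, and the calls of Ccng2 and E2f5 also without MCAO ipsilateral replicate 3, with edgeR adjusted p-values up to 0.231 over these. All 4 were lost with the receptor covariate, at edgeR adjusted p-values of 0.132 (E2f5), 0.138 (Ccng2), 0.175 (Gadd45g) and 0.367 (Gadd45b). The call of Gadd45b was also lost under RLE scaling (0.0534), with no filter (0.0518) and with only the groups compared (0.0604).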

How the data were processed

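RNA was measured in 18 libraries of sorted cells, 3 in each of 6 groups taken from the labels. The deposited table gives whole-number counts per gene, which the authors made with cutadapt, STAR and featureCounts on mm10, per the submitters' processing notes, which also name FastQC and DESeq2 and give no versions or strand setting. Its name calls it normalized, but its values are whole, library totals differ and most small counts are even, so they were used as raw counts. Genes with at least 10 counts in at least 3 libraries were tested in 1 fit of the 6 group means with edgeR 4.0.16 (R 4.3.3). The fit used TMM scaling, the quasi-likelihood test and Benjamini-Hochberg adjustment over all tested genes. It was first run on simulated counts, with changes only in genes above 10 CPM. Most mitotic members lay below that level, so that check does not cover them. The shared estimate of biological spread (edgeR's common BCV) was 0.774. Gene lengths are the deposited ones. DESeq2 1.42.0, RLE scaling, no filter, only the groups compared, a replicate block and leaving out each library were tried, and after the data were seen a receptor covariate, leaving out 2 libraries and MCAO against sham over both sides. Values in every library were given for 25 listed members and for the top 3 of each comparison by p. Genes of the other cycle lists, which are not members, were named only if called. Marker genes, the deleted genes and genes with overlapping exons were named whether or not they were called. Of the markers, Kdr and Tek were singled out after their values were seen. The members and lists were chosen with earlier results of these data known.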

Additional observations from a re-analysis of the deposited data

Results flagged for a closer look

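Ube2c lay above MCAO ipsilateral in all 3 Hdac2 ECKO libraries and below it in all 3 Ezh2 ECKO libraries. The log2 difference between the 2 groups, Hdac2 ECKO minus Ezh2 ECKO, was 5.72 ± 1.23 (SE), with an edgeR adjusted p of 0.0679 that did not pass the threshold. Both groups were set against the same 3 MCAO ipsilateral libraries.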

How the results depend on the processing

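For Ezh2 ECKO against MCAO ipsilateral, where 2 members were called, DESeq2 called 4 (adding Ccne2 and Ube2c), the receptor covariate 0 and the replicate block 0, with 1594, 9 and 12 genes in all against 250. Without single libraries the count ran from 0 to 2. With the replicate block the log2 changes were -2.93 for Cdkn1a and -1.90 for Ccnd3, both at an edgeR adjusted p of 0.0558, and the 4 calls from the other lists were lost at 0.0558 to 0.0790. Same-numbered sides correlated at -0.0367 to 0.210 in sham and -0.170 to 0.273 in MCAO, so the numbers were not taken to pair the libraries. For Hdac2 ECKO against MCAO ipsilateral DESeq2 called 2 members (243 genes) and the fit without the 2 libraries of highest receptor level 1 (62 genes), and leaving out single libraries gave 0 to 1, the 1 being Ccnd3 without MCAO ipsilateral replicate 3 (-2.29, edgeR adjusted p 0.0322). For Hdac2 ECKO against Ezh2 ECKO DESeq2, no filter and the covariate each called 1, Ube2c (654, 38 and 88 genes). For MCAO against sham over both sides DESeq2 called 4 (318 genes), the covariate 2 (141 genes) and the fit without the 2 libraries 2 (498 genes), and leaving out single libraries gave 0 to 2, with 2 without MCAO contralateral replicate 1 or MCAO ipsilateral replicate 3. The causes were not tested.

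The sign of Ccnd3 in Hdac2 ECKO against Ezh2 ECKO turned to -0.0477 under DESeq2, -0.0312 with only those groups, -0.0382 with the covariate and -0.0476 under RLE, and ran from -0.14 to 0.22 without single libraries. Cdkn1b in Ezh2 ECKO turned to 0.0896 with the covariate and 0.0654 without the 2 libraries, and ran from -0.80 to 0.0194 without single libraries. Mki67 in MCAO ipsilateral against sham ipsilateral ran from -0.48 to 1.27 without single libraries. Rrm2 between the sham sides was -0.24 when only those groups were fitted, a fit that gave no value for Mki67 on the contralateral side. Over 54 fold changes and 743 alternatives, 666 kept direction and side of the threshold, 21 newly passed it, 45 no longer did and 11 changed sign. RLE in place of TMM moved the median of all genes from 0.17 to 0.30 for the contralateral side, from -0.05 to -0.21 between the MCAO sides, from -0.08 to -0.27 for the difference of the occlusion effect and from -0.15 to -0.26 between the ECKO groups. Members of a few counts, such as Ccne1, Aurkb and Mki67, leave differences of several log2 units within their error.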
